A study of Mus musculus with 2 samples.

Results

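Cxcl9, Cxcl10, Cxcl11 and Cxcl16 are chemokines that draw activated T cells into inflamed tissue and tumours. All 4 were found by gene symbol among the 55357 genes listed, each under 1 identifier. The data were single-cell RNA counts of sorted CD45+ 7-AAD- cells, that is, live leukocytes, taken from tumours of MC38, a colon carcinoma cell line of the mouse. One library came from SPP1fl/fl mice, the control, in which the Spp1 gene is flanked by loxP sites. The other came from SPP1fl/fl-Lyz2-icre mice, which carry the same floxed alleles and a Cre recombinase driven from Lyz2, a gene of macrophages, monocytes and neutrophils. It is called Lyz2-icre here. The series addresses the effect of macrophage SPP1 (osteopontin) on colorectal cancer. Age, strain background, time of growth and the number of mice per library are not given in the sources used here.

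Cxcl9, Cxcl10 and Cxcl11 share the receptor Cxcr3 on effector T cells and NK cells, and all are classical targets of interferon-gamma, Cxcl10 also of type I interferon and NF-kB. Cxcl16 binds Cxcr6, is made as a membrane-anchored protein that can hold cells in place, and is shed by the proteases Adam10 and Adam17. Type 1 conventional dendritic cells and macrophages are the known makers of Cxcl9 in tumours, and migratory dendritic cells are known for Cxcl16.

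After filtering, 8724 control and 13915 Lyz2-icre cells were kept, with 88047097 and 98256831 UMIs (unique molecular identifiers, each 1 counted RNA molecule) and medians of 9380 and 6374 UMIs per cell. With 1 library per genotype there was no replicate. No difference between genotypes was tested, and every interval below is a 95% interval that covers counting error only. Spp1, the targeted gene, stood at 653 CPM (the gene's share of all UMIs of the cell type, on the usual CPM scale) in control macrophages, where 64.4% of cells had a UMI, and at 2.77 CPM in Lyz2-icre macrophages, where 1.23% did. In NK cells, which lie outside the lineages named for Lyz2, it stood at 930 and 714 CPM. Macrophage Lyz2 was lower too, 11554 CPM against 4046 CPM. Both libraries held cells with Xist and cells with Y-linked RNA, so each held cells of both sexes, and 43 cell barcodes occurred in both libraries.

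Cells were assigned to types by gates on marker UMIs that used none of the 4 ligands. Macrophages were cells with at least 30 UMIs of C1qa, C1qb and C1qc per 10000 and no markers of another lineage. They numbered 5508 and 10154 (63.1% of control cells). Near the limit, 415 and 653 cells had 20 to 40 such UMIs per 10000. The gates also gave 141 and 273 monocytes, 42 and 47 type 1 conventional dendritic cells (cDC1), 129 and 105 type 2 (cDC2), and 154 and 105 migratory dendritic cells. Cells with markers of more than 1 lineage, 685 and 835, were set aside as mixed, and 413 and 744 matched no gate. The gate named fibroblast or tumour, with collagen RNA, held 167 and 265 cells. Their Ptprc (CD45) stood at 17.0 and 18.5 CPM, low for a CD45+ sort, against 459 and 436 CPM in macrophages.

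Cxcl9, Cxcl10 and Cxcl11 lie side by side on chromosome 5 (mm10, GENCODE vM21), all on the minus strand, within 44139 bases. Cxcl9 (ENSMUSG00000029417) spans chr5:92321347-92328079, Cxcl10 (ENSMUSG00000034855) chr5:92346638-92348889 and Cxcl11 (ENSMUSG00000060183) chr5:92359544-92365485. Cxcl16 (ENSMUSG00000018920) is apart from them, on the minus strand of chr11:70453983-70459984. Cxcl11 is annotated as a polymorphic pseudogene, because the C57BL/6 allele is known to be unable to make the full protein. The allele of these mice is not given in the sources used here, so whether this RNA is translated into a chemokine is unknown. Art3, on the plus strand, spans Cxcl10 and Cxcl11 but was nearly silent, at 0.607 and 0.598 CPM in macrophages. Zmynd15, also on the plus strand, overlaps the 5′ end of Cxcl16 by 552 bases. Migratory dendritic cells had 474 and 416 CPM of Zmynd15, and macrophages 76.9 and 91.0 CPM. Whether counting used strand is not given in the sources used here.

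The 250 bases before the starts of Cxcl9 and Cxcl10 are shown because only these 2 of the 4 genes had an entry (RefSeq, GRCm38.p6, 5′ to 3′ on the gene's strand). Capitals mark matches, on either strand, to 3 motifs: 2 copies of GAAA with 2 bases between them, of interferon-stimulated response elements; TTCNNNGAA, of gamma-activated sites; and GGGNNTTCC, of NF-kB sites.
Cxcl9, chr5:92328080-92328329: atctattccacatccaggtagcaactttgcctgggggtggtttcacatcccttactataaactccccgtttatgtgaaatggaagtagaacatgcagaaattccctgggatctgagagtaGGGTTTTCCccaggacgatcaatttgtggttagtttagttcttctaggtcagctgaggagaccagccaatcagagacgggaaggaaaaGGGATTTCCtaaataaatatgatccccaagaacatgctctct
Cxcl10, chr5:92348890-92349139: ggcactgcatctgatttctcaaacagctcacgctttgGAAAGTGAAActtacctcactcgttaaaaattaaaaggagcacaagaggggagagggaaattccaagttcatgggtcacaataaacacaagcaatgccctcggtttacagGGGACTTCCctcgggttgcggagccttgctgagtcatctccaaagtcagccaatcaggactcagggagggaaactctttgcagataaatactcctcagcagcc

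The Cxcl10 window held the response element motif, GAAAGTGAAA, starting 213 bases before the gene, and an NF-kB motif, GGGACTTCC, at 103 bases. In the Cxcl9 window there were NF-kB motifs at 130 bases (GGGTTTTCC) and 42 bases (GGGATTTCC) and no match to the others. Of 32851 promoter windows of this length, 2.98% held the first motif, 7.02% the second and 4.98% the third. The letters were chosen with these 2 windows known, and a match is a description, not a bound site. The NF-kB letters allow exactly 2 bases between GGG and TTCC. GGGAAATTCC, with more bases between, also occurs in the Cxcl10 window and was not marked. The marked matches therefore do not compare the 2 windows by their number of NF-kB sites.

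Most UMIs of each ligand lay in macrophages. They held 79.8% of the Cxcl9 UMIs of the control library and 83.0% of those of Lyz2-icre. For Cxcl10 the shares were 70.0% and 78.5%, for Cxcl11 76.5% and 76.5%, and for Cxcl16 78.5% and 84.2%. These shares follow from how many macrophages were captured as well as from the level in each cell, and the levels per type gave another order for each ligand.

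**Figure D1:**
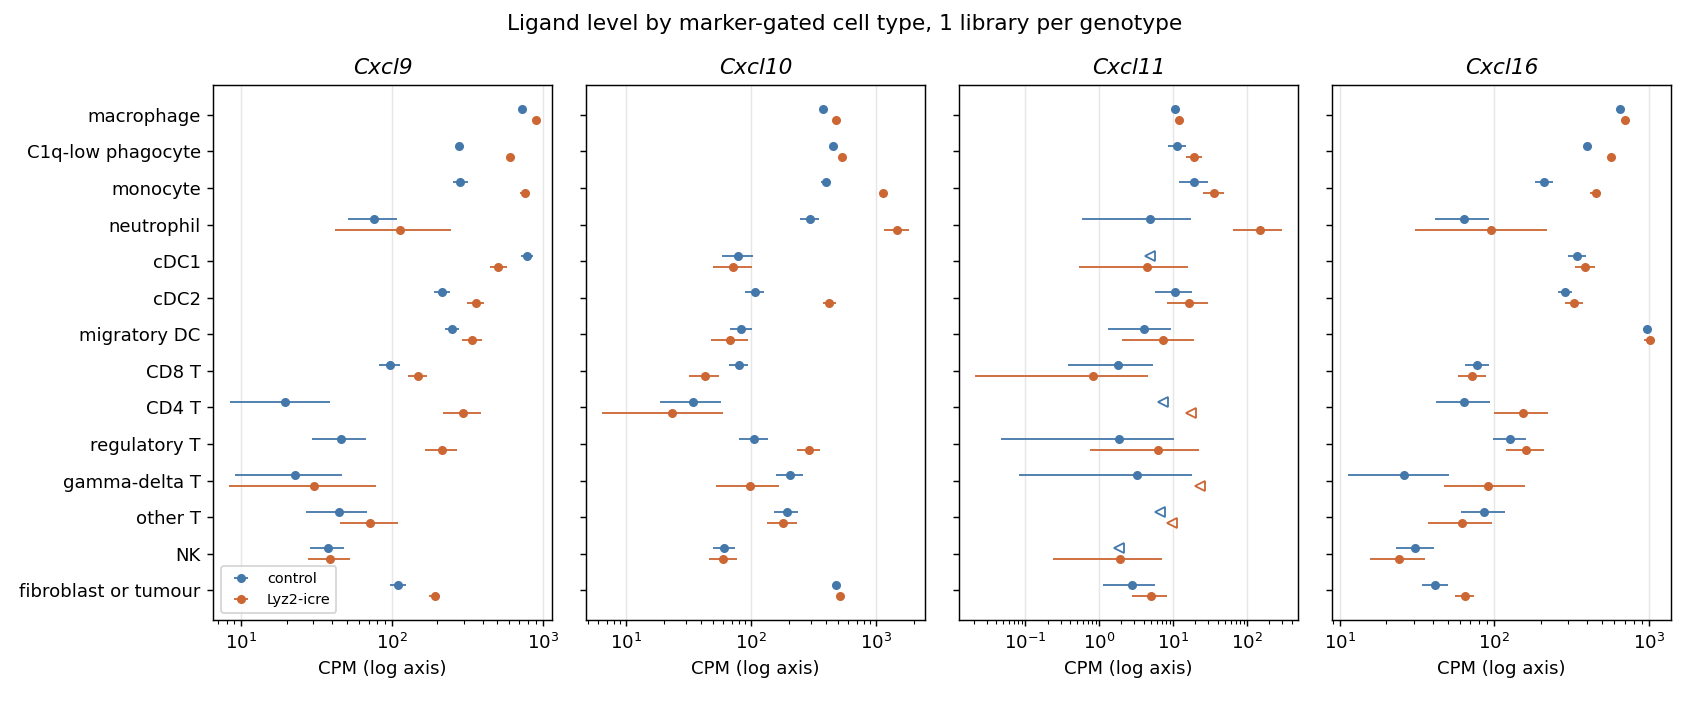
Level of each ligand (CPM, log axis) in 14 marker-gated cell types of the control and Lyz2-icre libraries. Points are summed UMIs over the type's total with 95% Poisson intervals, open triangles are limits from 3 counts where no UMI was seen, and each row is 1 library's cells; Cxcl16 is highest in migratory dendritic cells (979 and 1013 CPM), while Cxcl10 is high in the fibroblast or tumour gate (478 and 516 CPM) where Cxcl16 is low (41.5 and 64.4 CPM).

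Cxcl9 was highest in cDC1, the cross-presenting dendritic cells, and macrophages in control, and in macrophages in Lyz2-icre. Control cDC1 had 781 CPM (712 to 854) and control macrophages 723 CPM (716 to 730), so their intervals overlapped. In Lyz2-icre, macrophages led with 898 CPM (891 to 905), followed by monocytes with 759 CPM, C1q-low phagocytes with 603 CPM and cDC1 with 506 CPM (443 to 576). The cDC1 values rest on few cells: the 5 highest of 42 and of 47 held 71.0% and 58.2% of the type's Cxcl9 UMIs. After each cell was thinned to 2000 UMIs, 34.1% (20.1 to 50.6) and 31.9% (19.1 to 47.1) of cDC1 had a Cxcl9 UMI, against 29.9% and 43.0% of macrophages.

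Cxcl10 had a wider range of sources. In the control library the fibroblast or tumour gate (478 CPM, 452 to 506), C1q-low phagocytes (455 CPM, 436 to 475), monocytes (396 CPM, 360 to 435) and macrophages (375 CPM, 370 to 380) came first. The intervals of the first pair overlapped, as did those of monocytes and macrophages. Those of C1q-low phagocytes (from 435.8 CPM) and monocytes (to 435.4 CPM) barely parted. In these types 5 cells held 35.6% and 57.1% of the Cxcl10 UMIs, which counting intervals do not cover, so their order is open. In Lyz2-icre, neutrophils read 1475 CPM and monocytes 1126 CPM, ahead of C1q-low phagocytes (534 CPM), the fibroblast or tumour gate (516 CPM) and macrophages (474 CPM). The neutrophil value is 78 UMIs in 44 cells, of which 5 cells held 94.9%, and none of these cells reached 2000 UMIs. cDC1 and migratory dendritic cells, which carried Cxcl9, had little Cxcl10: 78.7 and 72.0 CPM in cDC1, and 83.7 and 68.4 CPM in migratory dendritic cells.

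Of the 167 control and 265 Lyz2-icre cells of the fibroblast or tumour gate, 88.0% and 89.4% had neither Xist alone nor Y-linked RNA alone, at medians of 13175 and 9547 UMIs, whereas 16.0% and 24.3% of macrophages were unassigned in this way. In those cells Cxcl10 stood at 410 CPM (384 to 438) and 507 CPM (480 to 535), while Cxcl9 stood at 36.0 and 131 CPM and Cxcl16 at 32.8 and 57.5 CPM. The 15 and 20 cells of the gate with Xist had 547 and 543 CPM of Cxcl9, and the 5 and 8 with Y-linked RNA 532 and 795 CPM. Their Cxcl10 stood at 820 and 242 CPM with Xist and at 1120 and 1540 CPM with Y-linked RNA. Whether the gate held MC38 cells, fibroblasts or both was not tested, and the 5 highest cells held 47.5% and 45.4% of its Cxcl10 UMIs.

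Cxcl16 was the ligand of migratory dendritic cells, the Ccr7-positive cells that carry antigen to lymph nodes. They had 979 CPM (925 to 1036) and 1013 CPM (930 to 1102), and at 2000 UMIs 83.9% and 83.5% of them had a Cxcl16 UMI. Macrophages followed with 648 and 708 CPM and 69.3% and 71.6% of cells. C1q-low phagocytes came next, at 398 and 570 CPM. cDC1 (345 and 386 CPM) and cDC2 (288 and 330 CPM) overlapped each other in both libraries. Monocytes lay below both in control (210 CPM) and above cDC2 in Lyz2-icre (454 CPM). The bases shared with Zmynd15 lie at the 5′ ends of both genes, and these were 3′ libraries. Whether any part of the Cxcl16 count belonged to the other strand was not tested.

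Cxcl11 was scarce. Macrophages had 10.7 CPM (617 UMIs) and 11.9 CPM (874 UMIs), and at 2000 UMIs only 1.69% and 1.87% of them had one. Monocytes read 19.1 CPM (11.8 to 29.2) and 35.5 CPM (25.6 to 48.0), above macrophages in both libraries by counting intervals that did not overlap. The control value is 21 UMIs in 7 of 141 cells, with 90.5% of them in 5 cells. At 2000 UMIs 2.84% (0.778 to 7.10) of control monocytes had one, an interval that holds the macrophage share, and 7.66% of Lyz2-icre monocytes. Neutrophils had 2 and 8 UMIs. NK cells had 0 and 2 UMIs, and the 0 allows up to 1.85 CPM.

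Lymphocytes were compared with the level that free RNA would give. Droplets take up RNA from lysed cells, and macrophages held most of the ligand UMIs, so each type's C1q level was used to predict the ligand level that macrophage RNA alone would bring. The same prediction was made from Apoe, another macrophage RNA, and the 2 predictions differed. The gates had set aside as mixed the cells with high C1q beside another lineage's markers. In types other than macrophages C1q was thus capped by the gates, and so was the prediction from it. A level above that prediction therefore cannot show by itself that a type made the ligand. How far the cap changed the multiples below was not tested. NK cells had 37.6 and 38.7 CPM of Cxcl9, 1.68 and 1.52 times the prediction, and 30.8 and 24.2 CPM of Cxcl16, 1.54 and 1.20 times. Predicted from Apoe, these became 0.884 and 1.12 times for Cxcl9 and 0.810 and 0.888 times for Cxcl16. Of NK cells at 2000 UMIs, 8.10% and 8.08% had a Cxcl9 UMI; their median depths before thinning were 6867 and 4387 UMIs, against 10029 and 6783 in macrophages. Cxcl10 in NK cells was 5.25 and 4.45 times the prediction from C1q and 2.77 and 3.28 times that from Apoe, at 61.0 and 59.9 CPM. CD8 T cells had 96.3 and 148 CPM of Cxcl9, 3.81 and 4.998 times the prediction from C1q and 2.22 and 2.21 times that from Apoe, but 5 cells held 78.0% and 76.7% of it. In Lyz2-icre CD4 T cells all 50 Cxcl9 UMIs lay in 4 of 41 cells. Regulatory T cells had 106 and 288 CPM of Cxcl10, with 60.3% and 82.6% of it in 5 cells. That was 6.57 and 18.8 times the prediction from C1q and 2.72 and 4.96 times that from Apoe. In control, gamma-delta T cells (205 CPM) and other T cells (192 CPM) had more Cxcl10 than regulatory T cells. In Lyz2-icre they had 98.7 CPM, on 13 UMIs, and 180 CPM. Their multiples of the prediction are not given. Cxcl9 in cDC1 was 45.0 and 22.4 times the level predicted from C1q. Cxcl16 in migratory dendritic cells was 53.5 and 56.4 times, and Cxcl10 in the fibroblast or tumour gate 80.7 and 50.1 times. From Apoe these were 27.7 and 15.9, 47.1 and 42.8, and 49.2 and 41.1 times. The cap on C1q held for these types too. In cDC1 and the fibroblast or tumour gate, 5 cells also held much of the ligand, as given above.

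Between the genotypes, the macrophage ratios were under 1.5-fold. Lyz2-icre over control was 1.24 (1.23 to 1.26) for Cxcl9, 1.26 (1.24 to 1.29) for Cxcl10, 1.11 (1.0001 to 1.23) for Cxcl11 and 1.09 (1.08 to 1.11) for Cxcl16. None of the 4 reached 1.5-fold, which 0.316% of 7901 genes did upward and 0.873% downward. The members' median log2 ratio, with 5 CPM added, was 0.22, against -0.01 over all genes tested. Among these genes the ratios of Cxcl9 and Cxcl10 lay at percentiles 97.6 and 98.0, those of Cxcl11 and Cxcl16 at 80.5 and 85.0. The share of macrophages with a Cxcl9 UMI at equal depth was 29.9% (28.6 to 31.1) in control and 43.0% (42.0 to 44.04) in Lyz2-icre. Split by sex, the Cxcl9 ratio was 1.29 in female and 1.11 in male cells, and the Cxcl10 ratio 1.11 and 1.501. Male cells had more Cxcl9 than female cells in both libraries, 983 against 595 CPM and 1094 against 766 CPM. Cells of different sex come from different mice, so sex and mouse cannot be told apart.

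Monocytes, the Ly6c2-positive precursors of tumour macrophages, had larger ratios. Cxcl9 stood at 284 CPM (253 to 317) in control and 759 CPM (710 to 810) in Lyz2-icre, a ratio of 2.68 (2.35 to 3.05). Cxcl10 stood at 396 and 1126 CPM, a ratio of 2.84 (2.55 to 3.17), Cxcl11 had 1.86 (1.08 to 3.30), and Cxcl16 stood at 210 and 454 CPM, a ratio of 2.16 (1.85 to 2.53). All 4 passed 1.5-fold upward, which 7.2% of 7879 genes did (5.32% downward), and their median log2 ratio was 1.25 against 0.03 over all genes tested. At 2000 UMIs, 17.0% (11.2 to 24.3) of control and 31.8% (26.2 to 37.8) of Lyz2-icre monocytes had Cxcl9, 18.4% and 32.2% had Cxcl10, and 27.0% and 45.6% had Cxcl16.

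The size of the monocyte difference depended on few cells and on which cells were kept. In control monocytes 5 cells held 51.0% of the Cxcl9 and 57.1% of the Cxcl10 UMIs. Without the 5 highest cells of each library, the ratios were 4.13 and 4.28, and that of Cxcl11, with 90.5% of its control UMIs in 5 cells, 12.4. Among cells with at least 5000 UMIs the Cxcl10 ratio was 1.54, and among male cells the ratios were 1.45 for Cxcl9, 1.39 for Cxcl10 and 1.91 for Cxcl16, against 3.07, 3.07 and 2.29 among female cells. The monocyte gate held 3714 and 3483 CPM of macrophage markers in the 2 libraries, with median depths of 7206 and 3912 UMIs; their part in the difference was not tested.

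**Figure D2:**
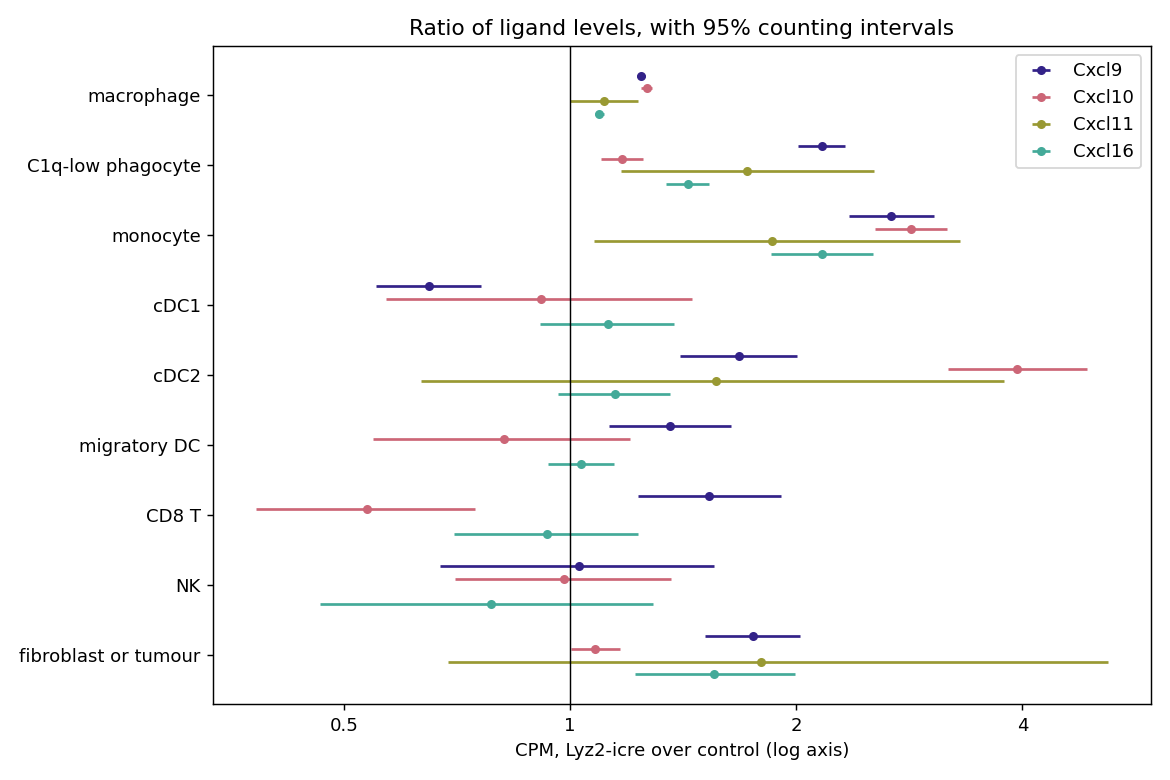
Ratio of each ligand's level, Lyz2-icre over control (log axis), in 9 cell types, with 95% counting intervals, where both libraries had at least 5 UMIs. The macrophage ratios lie between 1.09 and 1.26, the monocyte ratios between 1.86 and 2.84, and Cxcl9 in cDC1 at 0.648.

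Among other myeloid types, C1q-low phagocytes had Cxcl9 ratios of 2.16 (2.01 to 2.32) and Cxcl16 ratios of 1.43 (1.34 to 1.53), and 1 of the 4 ligands was past 1.5-fold with 5 CPM added and upward, as were 1.81% of 7917 genes (2.75% downward). For cDC2 the Cxcl10 ratio was 3.93 (3.19 to 4.87), 108 against 423 CPM, with 5 cells holding 71.2% and 57.7%; 2 of the 4 ligands passed 1.5-fold upward there, as did 7.04% of 8108 genes (8.29% downward). cDC1 had less Cxcl9 in Lyz2-icre, 0.648 (0.552 to 0.760), and shares of cells with a UMI whose intervals overlapped. In migratory dendritic cells the Cxcl16 ratio was 1.03 (0.934 to 1.15), and none of 3 tested ligands passed 1.5-fold (8.13% of 7592 genes upward, 9.75% downward). None of 3 passed in NK cells (2.59% upward, 7.56% downward). In the fibroblast or tumour gate Cxcl9 passed, at 1.75 (1.51 to 2.03) (2.24% upward, 3.73% downward). In CD8 T cells Cxcl9 passed upward and Cxcl10 downward (3.12% and 7.17%), and in other T cells 1 of 3 passed upward (14.1% upward, 16.8% downward).

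Within macrophages the ligands were carried by different numbers of cells. Cxcl16 was spread thinly over most cells: the 10% of cells with the most of it held 29.4% of its UMIs in each library, and its variance over its mean (Fano factor, near 1 for a level shared by all cells) was 1.18 and 1.26. Cxcl9 and Cxcl10 were concentrated in a minority. The 10% of cells with the most Cxcl9 held 71.9% and 58.8% of it, and the 10% with the most Cxcl10 held 84.8% and 82.2% of that, with Fano factors of 8.62 and 6.62, and 8.89 and 9.41. Single cells reached 45 and 36 Cxcl9 UMIs out of 2000.

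The 3 chromosome 5 ligands occurred in the same macrophages more often than their separate shares would give. Over 5149 control and 9041 Lyz2-icre cells thinned to 2000 UMIs, 9.30% and 14.2% had both Cxcl9 and Cxcl10, where the product of the shares is 6.10% and 9.92%. The odds ratio, the odds of one ligand in cells with the other over those in cells without it, was 2.40 (2.08 to 2.76) and 2.71 (2.45 to 2.997). Cxcl10 with Cxcl11 gave 26.1 (14.2 to 48.3) and 13.6 (9.34 to 19.8), and Cxcl9 with Cxcl11 9.38 (5.56 to 15.8) and 5.41 (3.71 to 7.90). Of the rare Cxcl11-positive macrophages, 86.2% and 79.3% also had Cxcl10, and 79.3% and 79.9% had Cxcl9. Cxcl16 was weakly tied to Cxcl9, at 1.84 (1.60 to 2.11) and 1.48 (1.35 to 1.63), and to Cxcl10 with intervals that reached or neared 1, at 1.15 (0.989 to 1.33) and 1.15 (1.03 to 1.29).

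**Figure D3:**
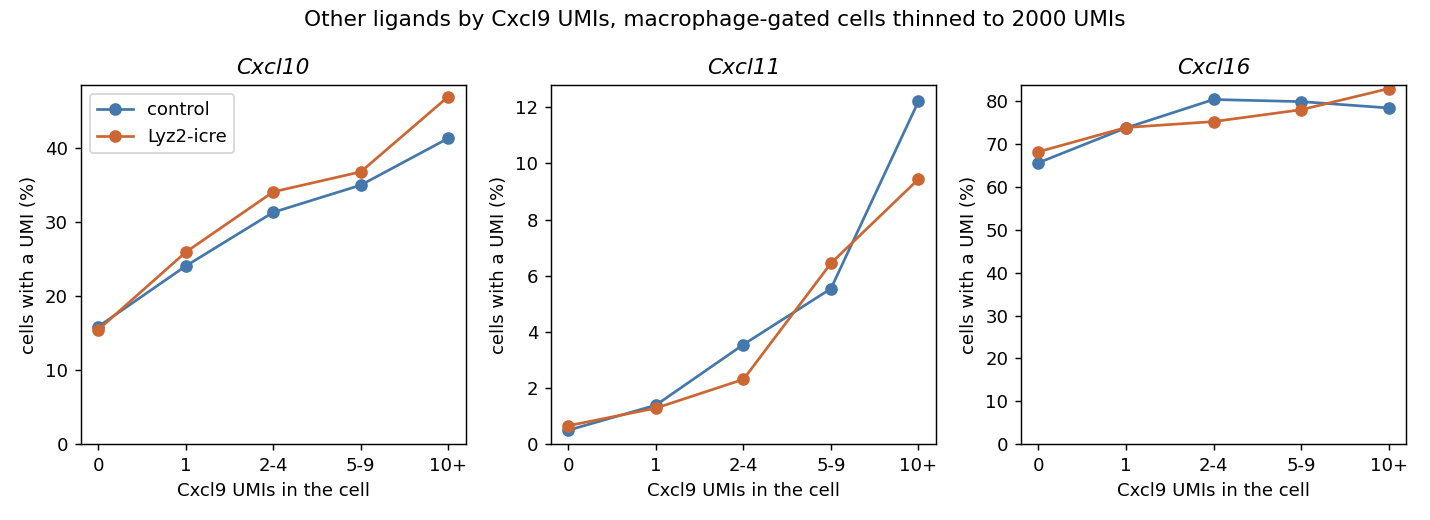
Share of macrophages (%) with a UMI of Cxcl10, Cxcl11 or Cxcl16, by the number of Cxcl9 UMIs in the cell, at 2000 UMIs per cell, in the control and Lyz2-icre libraries. Cxcl10 goes from 15.9% and 15.5% of cells without Cxcl9 to 41.3% and 46.9% of cells with 10 or more, and the y axes start at 0.

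The share with Cxcl10 rose with each step of Cxcl9, from 15.9% of control cells with no Cxcl9 UMI through 24.1%, 31.3% and 35.0% to 41.3% of the 213 cells with 10 or more. Cxcl11 went from 0.498% to 12.2% over the same steps, while Cxcl16 went from 65.6% to 78.4% in control and from 68.2% to 82.9% in Lyz2-icre. Counted together, 20.5% of control and 15.4% of Lyz2-icre macrophages had none of the 4 ligands, 46.2% and 42.2% had 1, and 0.971% and 0.973% had all 4.

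In monocytes the odds ratios of Cxcl9 with Cxcl10 had intervals that overlapped between the libraries. In 261 Lyz2-icre monocytes the odds ratio was 0.869 (0.495 to 1.53), an interval that lies below the one of macrophages, and 25 cells had both. In 141 control monocytes it was 1.20 (0.403 to 3.59), too wide to place. Pearson r of log counts was 0.35 in control and 0.046 in Lyz2-icre monocytes, against 0.25 and 0.28 in macrophages. Cxcl10 with Cxcl11 remained tied in Lyz2-icre monocytes, at 14.7 (4.18 to 51.8), and Cxcl9 with Cxcl16 gave 6.81 (2.65 to 17.5) and 1.92 (1.13 to 3.26). In C1q-low phagocytes Cxcl9 with Cxcl10 gave 3.19 (1.83 to 5.56) and 2.43 (1.53 to 3.85).

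**Figure D4:**
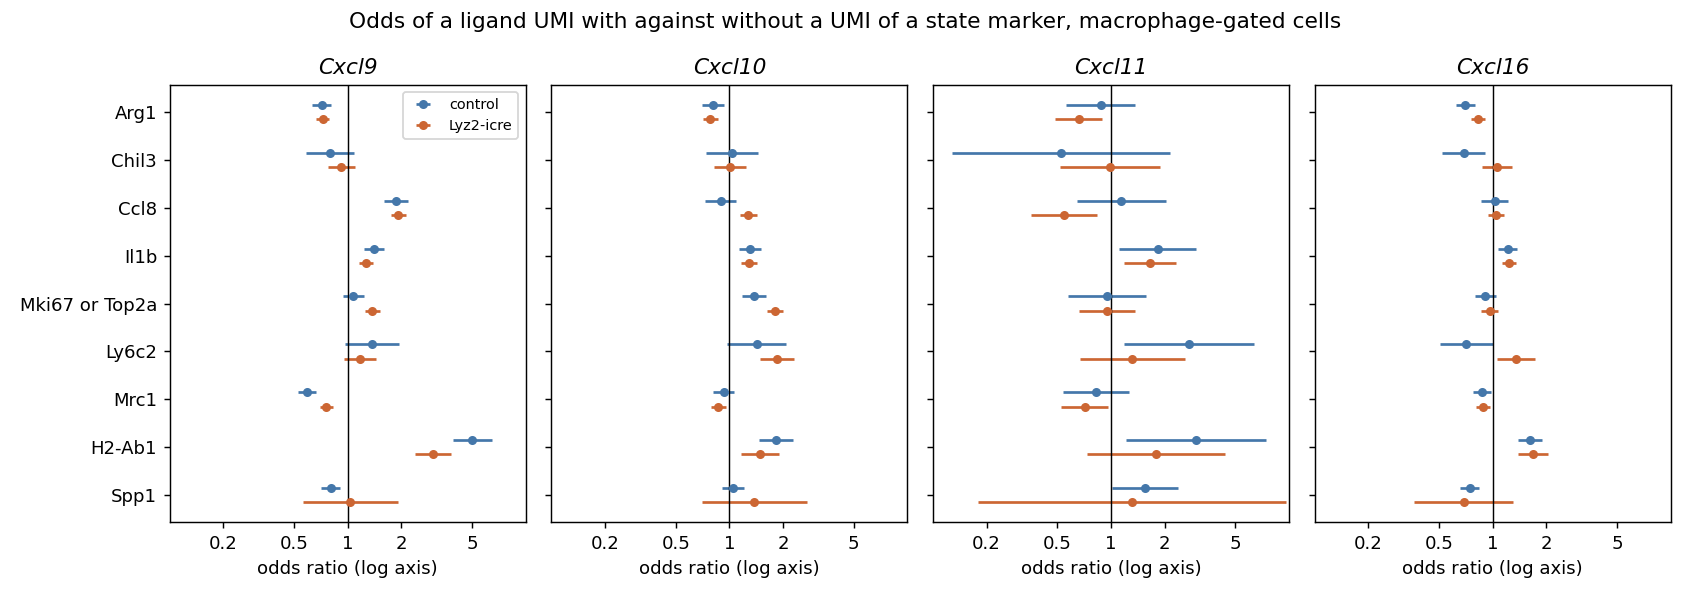
Odds ratio (log axis) of a ligand UMI in macrophages with against without a UMI of each state marker, at 2000 UMIs per cell, with 95% counting intervals, for the control and Lyz2-icre libraries. H2-Ab1 has the highest odds ratios with Cxcl9 (5.01 and 3.02), and Mrc1 and Arg1 lie below 1. The control intervals span 1 for Mrc1 with Cxcl10 and Cxcl11 and for Arg1 with Cxcl11.

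The ligands were then set against markers of macrophage states. Cells with H2-Ab1, an MHC class II gene that interferon-gamma induces, averaged 1.61 and 1.78 Cxcl9 UMIs, against 0.278 and 0.685 in cells without it. Cells with Mrc1 (the mannose receptor CD206) averaged 1.06 and 1.42, against 1.86 and 2.11, and cells with Arg1 (arginase, used by suppressive macrophages) 1.11 and 1.40, against 1.58 and 2.13. Ccl8, a chemokine of resident-like macrophages, went with Cxcl9, at odds ratios of 1.87 (1.59 to 2.19) and 1.92 (1.75 to 2.12). The other ligands did not follow it alike. With Ccl8, Cxcl10 had 0.895 (0.734 to 1.09) and 1.28 (1.15 to 1.43), and Cxcl11 1.15 (0.643 to 2.04) and 0.542 (0.353 to 0.831). For Cxcl16 both intervals spanned 1. Il1b went with every ligand in both libraries, by intervals above 1. Its odds ratios were 1.41 and 1.27 for Cxcl9, 1.31 and 1.28 for Cxcl10, 1.83 and 1.65 for Cxcl11, and 1.22 and 1.23 for Cxcl16. For Chil3 the intervals spanned 1, except for Cxcl16 in control, at 0.687 (0.520 to 0.908). Cxcl10 went with the cycling markers Mki67 or Top2a, at 1.37 (1.18 to 1.60) and 1.80 (1.62 to 2.01), where Cxcl9 had 1.08 (0.936 to 1.23) and 1.37 (1.25 to 1.51), and in Lyz2-icre with Ly6c2, at 1.86 (1.496 to 2.32). Among control macrophages, those with Spp1 had Cxcl9 at 0.804 (0.710 to 0.911), Cxcl16 at 0.742 (0.657 to 0.837) and Cxcl10 at 1.05 (0.910 to 1.20). Cxcl11 went the other way, at 1.55 (1.01 to 2.37).

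The genes most like each ligand across macrophages were ranked by Pearson r of log counts in the lower of the 2 libraries, and the genes named leave out the ligands, whose ranks follow. For Cxcl9 these were the interferon-inducible GTPase Gbp2 (r = 0.51 and 0.41 over 5149 and 9041 cells), AW112010, Ly6a, Serpina3g, Iigp1 and Fgl2, with Cxcl10 itself at rank 5. For Cxcl10 they were Iigp1 (0.35 and 0.34), Serpina3g, Irf1, Ifi203, Irgm1 and Irf8, and Cxcl11 and Cxcl9 themselves ranked 2 and 3 of 3134 genes. For Cxcl11 they were Serpina3g (0.16 and 0.16), Iigp1, Irf8, Cd69, Ly6a and Ifi203, behind Cxcl10 (0.33 and 0.32) at rank 1 and Cxcl9 (0.20 and 0.17) at rank 2. Cxcl16 was closest to H2-Ab1 (0.16 and 0.15), H2-Eb1, H2-Aa, Cd74, AW112010 and Gbp2. All cells of a library share its depth and its free RNA, and the values for Cxcl11 and Cxcl16 are weak.

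Across the 10 cell types with enough cells, Cxcl9 was most like Myo5a (r = 0.95 and 0.97), Tmem106a, Lacc1 and Slc29a3, and Cxcl16 most like Basp1 (0.96 and 0.97), Scamp2, Rapgef2 and Bcl2a1a. For Cxcl10 these were Plod3 (0.90 and 0.91), Plin2, Fam102b and Emp3, and for Cxcl11 Gpx1 (0.94 and 0.93), Bach1, Dusp3 and Iqgap1. Cxcl11 was near the floor in several of these types. It had 5 and 4 UMIs in migratory dendritic cells, 3 and 1 in CD8 T cells, and 0 and 2 in NK cells. In other T cells it had none, so its values mostly set a few myeloid types against near-empty ones. Over the same types, r was 0.52 and 0.67 for Cxcl9 with Cxcl10, 0.80 and 0.89 for Cxcl9 with Cxcl16, and 0.18 and 0.42 for Cxcl10 with Cxcl16. The types of a library share its free RNA, and these values are descriptions over 10 points. The genes named are the highest of 6043 compared. Types under 50 cells in either library were left out, among them cDC1 with 42 and 47 cells.

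The receptors were highest on lymphocytes. Cxcr6, the receptor of Cxcl16, was at 414 and 440 CPM in CD8 T cells, 792 and 493 CPM in gamma-delta T cells and 280 and 370 CPM in CD4 T cells. Cxcr3, the receptor of the other 3, was at 73.6 and 52.9 CPM in CD4 T cells and 72.9 and 104 CPM in other T cells. Gamma-delta T cells had 68.2 and 45.5 CPM of Cxcr3 (21 and 6 UMIs), and regulatory T cells 64.2 and 62.7 CPM. NK cells had 35.8 and 20.3 CPM, cDC1 13.1 and 41.5 CPM, and CD8 T cells 12.7 and 19.7 CPM (21 and 24 UMIs). Ackr3, a scavenger of Cxcl11, was found in the fibroblast or tumour gate, at 153 and 107 CPM, and Ackr1 had at most 2 UMIs in any type of at least 30 cells. Dpp4, the peptidase that truncates the Cxcr3 ligands, was highest in cDC2 (112 and 64.7 CPM) and migratory dendritic cells (109 and 115 CPM). Macrophages had 124 and 143 CPM of Adam10 and 144 and 130 CPM of Adam17. Ifng, the inducer, was highest in CD4 T cells (687 and 1216 CPM) and CD8 T cells (480 and 749 CPM).

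The other genes of the interferon pathways were taken from fixed lists. In macrophages the 17 interferon-gamma targets counted had a median log2 ratio of 0.24 (ligands 0.22, all genes -0.01), and 1 was past 1.5-fold upward with 5 CPM added, as were 0.316% of all genes. The highest were the GTPases Iigp1 (92.9 and 143 CPM, log2 0.60) and Irgm1 (39.4 and 54.4 CPM, 0.42), the lowest Gbp3 (log2 -0.09) and Psmb8 (0.14). Type I interferon targets had a median of -0.03, from Rsad2 (-0.36) and Ifit2 (-0.35) to Ifit1 (0.30) and Oasl2 (0.21), none of 10 past 1.5-fold. Of 16 signalling genes, with a median of 0.05, Socs1 (17.5 and 25.7 CPM, 0.45) was among the highest, and Nfkb1 (199 and 141 CPM, -0.48) and Ifngr1 (249 and 200 CPM, -0.31) the lowest. In monocytes 10 of 17 interferon-gamma targets, 6 of 12 type I targets and 4 of 16 signalling genes were past 1.5-fold upward, with medians of 0.69, 0.55 and 0.22. Of all 7879 genes tested there 7.2% were past it upward and 5.32% downward, with a median of 0.03.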

How the data were processed

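Raw UMI counts per gene and barcode were deposited by the authors for called cells, from 10x 3′ v3 libraries counted with Cell Ranger 8.0.1, per the file headers, after bcl2fastq 5.0.1 and against mm10, per the submitters' processing notes; the annotation release is not given in the sources used here. Barcodes under 300 genes, under 500 UMIs or above 15% mitochondrial reads were dropped (430 and 29). Cells were gated on marker UMIs, with minimums set after the data were seen; no doublet caller was run, and cells with markers of 2 lineages, or with C1q of at least 20 per 10000 beside another lineage's markers, were set aside. Type shares were not compared between genotypes, since the gates depend on depth. Levels are summed UMIs as CPM with exact Poisson intervals, ratios have conditional binomial and shares Clopper-Pearson intervals, and a count of 0 is given as a limit of 3 counts. Cells were thinned to 2000 UMIs, leaving out 611 and 1723, for shares and co-occurrence. Calls are 1.5-fold with 5 CPM added, among genes at 10 CPM or more. The members and gene lists were chosen with earlier results of these data known. Of each list the 2 highest and 2 lowest log2 ratios in macrophages at 20 CPM or more in at least 1 library are named, with all receptors and processing genes, and of likeness 4 genes across types and 6 across cells per ligand. One gene that this rule names is not reported here. The scripts (Python 3.11.15, numpy 2.4.6, scipy 1.17.1, scanpy 1.11.5) were tested on simulated data.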

Additional observations from a re-analysis of the deposited data

Results flagged for a closer look

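In macrophages the Cxcl11 ratio of Lyz2-icre over control was 1.31 (1.11 to 1.55) in cells with Xist but 0.949 (0.798 to 1.13) in those with Y-linked RNA, opposite directions whose difference was not tested; the second interval spans 1. The other 3 results ran against the macrophage ratio of the same ligand, also untested. The Cxcl9 ratio in cDC1 was 0.648 (0.552 to 0.760), where 5 cells held 71.0% of the control UMIs. The Cxcl10 ratio was 0.537 (0.382 to 0.746) in CD8 T cells, on 131 and 52 UMIs, and 0.482 (0.244 to 0.886) in gamma-delta T cells, on 63 and 13 UMIs, with 65.6% and 73.0% of the control UMIs in 5 cells.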

How the results depend on the processing

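Macrophage ratios stayed above 1 under every alternative run, except Cxcl11 among male cells. The Cxcl11 interval also reached below 1 with the stricter cell filter (from 0.9999) and with gate minimums doubled (from 0.9997). After thinning the Cxcl11 ratio was 1.03 (0.812 to 1.30). For Cxcl9 the ratio was 1.21 with gate minimums doubled, 1.26 with Leiden classes, 1.29 in female and 1.11 in male cells, 1.27 as a mean of per-cell CPM and 1.22 after thinning. For Cxcl10 it was 1.11 in female and 1.501 in male cells, 1.31 as a mean per cell and 1.30 without the 5 highest cells. Cxcl11 had 1.31 in female cells and reversed to 0.949 in male cells; Cxcl16 had 1.11 with Leiden classes, 1.14 in female and 1.05 in male cells. The monocyte ratio of Cxcl9 was 3.34 with gates doubled, 3.07 in female and 1.45 in male cells, 3.45 after thinning and 4.13 without the 5 highest cells. That of Cxcl10 was 2.47 with gates doubled, 1.39 in male cells, 1.54 at 5000 UMIs or more and 4.28 without the 5 highest cells, and that of Cxcl11 12.4 without them. The monocyte ratios under alternatives, the 5000 UMI limit and the removal of the highest cells were chosen after seeing the data, and no Leiden class stood for monocytes.

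The macrophage share of control UMIs was, for Cxcl9, 84.4% with Leiden classes and 85.2% in male cells. For Cxcl10 it was 67.2% with gates doubled, 77.4% with Leiden classes, 68.7% in female and 84.3% in male cells, and for Cxcl11 72.2%, 84.8% and, in male cells, 82.0%. For Cxcl16 it was 75.3% with gates doubled, 81.3% with Leiden classes, 77.8% in female and 86.3% in male cells. In Lyz2-icre, in that order, Cxcl9 had 81.8%, 85.3%, 81.8% and 90.2%, Cxcl10 75.9%, 82.7%, 79.5% and 87.0%, and Cxcl16 80.7%, 84.9%, 84.8% and 87.6%; Cxcl11 had 73.2%, 82.0% and, in male cells, 84.7%. The odds ratio of Cxcl9 with Cxcl10 was 2.02 and 2.36 without thinning. In male Lyz2-icre cells it was 2.29 (1.86 to 2.84) when these cells were thinned separately. It was 2.76 (2.22 to 3.44) in the thinned cells used above, so the male value depended on the random draw. The cause of these shifts was not tested. No paired analysis was possible because each genotype had 1 library and no test was made.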
